A study of Homo sapiens with 6 samples.

Results

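HLA class I molecules carry peptides from the cell's own proteins to the cell surface, where cytotoxic T cells and natural killer cells read them. Each molecule joins a polymorphic heavy chain to β2-microglobulin. Its peptides are cut by the proteasome, pumped into the endoplasmic reticulum by the TAP transporter and loaded with the help of tapasin. Interferons raise this whole group of genes, and carcinomas of squamous epithelia are known for losing parts of it.

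The genes described here are 9 members of this pathway, chosen by symbol from the 58884 genes in the count files. The choice was made with earlier results of these data known. They are the heavy chain genes *HLA-B*, *HLA-C* and *HLA-E*, the light chain gene *B2M*, the transporter genes *TAP1* and *TAP2*, the tapasin gene *TAPBP*, and the immunoproteasome genes *PSMB8* and *PSMB9*. Each symbol belonged to 1 Ensembl gene, *B2M* on chromosome 15 and the other 8 on chromosome 6, and all 9 were among the 15001 genes that passed the filter on low counts. They were measured by RNA sequencing in HSC-4, an established cell line from a human squamous cell carcinoma of the mouth. In one group, 3 libraries came from HSC-4 cells given 50 µM DAPT for 24 h. DAPT inhibits γ-secretase, the protease that frees the intracellular domain of Notch receptors. The other group was 3 control libraries of the same line, which the study's methods describe as cells kept with the vehicle DMSO for the same 24 h. In the count files the control columns are named GM without explanation, so a medium without DMSO is possible, and the vehicle then cannot be told apart from DAPT. HSC-4 is a single cell line, and the labels do not say whether the libraries of a group came from separate cultures, so p-values measure the spread between these libraries, which may be technical. The comparison asks which genes of the pathway differ in RNA level between the DAPT and control libraries. Notch cleavage itself was not measured in these libraries.

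Library totals ran from 12276313 to 16317672 counts, and 3 counts, taken as the smallest signal, equalled 0.184 to 0.244 CPM (read counts scaled to a common library size). This floor covers counting error only. *HES1*, a direct target of Notch, was at 42.5, 50.3 and 48.2 CPM in control replicates 1, 2 and 3 and at 27.9, 27.2 and 27.3 CPM in the DAPT libraries, so it was lower in every treated library (log2 fold change -0.77 ± 0.08 standard error, adjusted p = 7.2e-08, edgeR quasi-likelihood test with Benjamini-Hochberg adjustment). The epithelial markers *KRT5*, *KRT6A*, *TP63*, *CDH1* and *EPCAM* were at 183 CPM or more in every library, whereas *KRT14*, a keratin of basal keratinocytes, averaged 3.17 CPM in the controls and 0.443 CPM with DAPT. All 6 epithelial markers differed between the groups in the same edgeR test, 4 lower and 2 higher with DAPT. *KRT5* went from 2701 to 1315 CPM (log2 fold change -1.04), *KRT6A* from 523 to 187 CPM (-1.48), *TP63* from 378 to 252 CPM (-0.58) and *KRT14* by -2.79 on the log2 scale, while *CDH1* and *EPCAM* both rose by 0.27. The part of this shift in the class I values was not tested. Among the leukocyte markers, *PTPRC* and *CD3E* reached at most 0.146 CPM, *LYZ* at most 0.260 CPM, and *CD14* lay between 8.77 and 12.8 CPM.

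Control replicate 1 stood apart from the other 5 libraries. It held 215 CPM of the fibroblast collagen gene *COL1A2* (at most 2.02 CPM in any other library), 274 CPM of *COL1A1* (48.3 to 54.0 CPM elsewhere), 30.6 CPM of *COL3A1* (at most 0.307 CPM elsewhere) and 6.35 CPM of *PDGFRB* (at most 0.433 CPM elsewhere). The endothelial gene *PECAM1* had at most 1 count per library. Summed over these 5 markers, control replicate 1 was at 525 CPM, the other controls at 56.5 and 55.1 CPM and the DAPT libraries at 48.8 to 53.4 CPM. Further fibroblast genes picked after their values were seen showed the same, with 240 CPM of *VIM* in control replicate 1 against at most 2.24 CPM elsewhere. The part of this RNA in the class I values was not tested. Each result is therefore given with all 6 libraries and, where it matters, without control replicate 1.

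The promoters of 8 of the 9 genes (all but *HLA-E*) were matched in RefSeq (GRCh38.p14), as windows of 300 bases that begin 250 bases before a start site. They are shown for *HLA-B*, which had the largest change of the 9 genes, for *B2M*, the chain shared by all class I molecules, and for *TAP1* and *PSMB9*, which start 488 bases apart and run in opposite directions. Capitals mark matches to AANNGAAA, the core that interferon regulatory factors bind, searched on both strands, where matches may overlap one another. The windows are chr6:31357130-31357429 (minus strand) for *HLA-B*, chr15:44711267-44711566 (plus strand) for *B2M*, chr6:32853655-32853954 (minus strand) for *TAP1* and chr6:32853942-32854241 (plus strand) for *PSMB9*.
HLA-B: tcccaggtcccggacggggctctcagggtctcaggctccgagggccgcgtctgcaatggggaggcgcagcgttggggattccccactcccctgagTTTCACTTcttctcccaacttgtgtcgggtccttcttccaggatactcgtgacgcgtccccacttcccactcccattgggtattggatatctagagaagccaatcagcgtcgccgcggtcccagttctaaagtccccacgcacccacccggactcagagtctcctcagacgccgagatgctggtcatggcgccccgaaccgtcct
B2M: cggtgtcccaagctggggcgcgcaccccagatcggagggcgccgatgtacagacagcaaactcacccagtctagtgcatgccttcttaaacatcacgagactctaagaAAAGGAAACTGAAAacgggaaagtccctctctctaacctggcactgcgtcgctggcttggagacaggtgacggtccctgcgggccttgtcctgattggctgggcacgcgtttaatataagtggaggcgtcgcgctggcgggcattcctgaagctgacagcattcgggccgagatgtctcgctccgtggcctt
TAP1: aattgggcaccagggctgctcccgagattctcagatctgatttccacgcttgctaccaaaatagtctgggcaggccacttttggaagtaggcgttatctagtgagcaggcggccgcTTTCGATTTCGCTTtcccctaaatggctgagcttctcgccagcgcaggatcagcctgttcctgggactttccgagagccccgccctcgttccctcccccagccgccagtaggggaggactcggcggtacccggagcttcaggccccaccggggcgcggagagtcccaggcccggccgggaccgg
PSMB9: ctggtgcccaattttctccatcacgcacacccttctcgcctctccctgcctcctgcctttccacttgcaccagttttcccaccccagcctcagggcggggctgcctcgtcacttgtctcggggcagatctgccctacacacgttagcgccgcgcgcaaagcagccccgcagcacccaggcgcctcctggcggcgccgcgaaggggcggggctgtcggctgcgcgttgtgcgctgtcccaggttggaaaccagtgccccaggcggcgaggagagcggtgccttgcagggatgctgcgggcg
*TAP1* and *PSMB8* have 2 windows each, so the 8 genes have 10 windows. The AANNGAAA core was found in 7 of these 10 windows, and in 22.8% of 35116 RefSeq promoter windows of the same length. The 7 belong to 7 genes. It began 155 bases before the start site in *HLA-B* and 151 bases before it in *HLA-C*. In *B2M*, *TAP1*, *TAP2* and *TAPBP* 2 overlapping matches formed a run of 14 bases that began 142, 134, 62 and 18 bases before the start site. *PSMB8* carried such a run in the second of its 2 windows, and the window of *PSMB9* held no match. The run of *TAP1* lies between the start sites of *TAP1* and *PSMB9*, beyond the reach of the *PSMB9* window. The Y box ATTGG was present in 5 of the 10 windows (34.6% of all windows), the cyclic AMP response element core TGACG in 6 (24.6% of all windows) and GGNNTTNCC, a short form of the NF-κB site, in 6 (17.1% of all windows). The first window of *TAP1* and the window of *PSMB9* share 13 bases. Their Y box matches are the same bases read from opposite strands, counted in both windows. TGGGAA, the core of the site of RBPJ, the DNA-binding partner of Notch, was found in 4 windows, those of *HLA-B*, *HLA-C*, *TAP1* (its second) and *PSMB9*, and in 24.0% of all windows. The gamma-activated site TTCNNNGAA was in 2 windows (7.66% of all windows), and in the second window of *TAP1* it overlapped the TGGGAA match by 6 bases. In *HLA-C* a Y box shared 1 base with TGGGAA. These matches describe letters in the windows and nothing was measured at them.

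With DAPT, RNA of the heavy chains, the light chain, *TAP1* and *TAPBP* was higher, by 9.19% to 31.5%, while *TAP2*, *PSMB8* and *PSMB9* did not pass the test. By edgeR's quasi-likelihood test (adjusted p under 0.05 over all 15001 genes), 6 of the 9 genes were called higher and 0 lower, where 17.2% of all tested genes were called higher and 18.0% lower. Because the 9 genes were chosen with earlier results of these data known, these shares are a description and not an independent test. At an unadjusted p under 0.05 the count of lower genes was also 0, but the share of all genes at that threshold was not computed. DESeq2 and limma-voom called 0 of the 9 lower as well, beside 2172 and 2652 of all 15001 tested genes. In the same 6 genes every DAPT library lay above every control library, which held for 23.6% of all tested genes, and in 0 of the 9 genes did every DAPT library lie below every control, which held for 22.7%. The median log2 fold change of the 9 genes was 0.16, beside 0.01 over all tested genes. Without control replicate 1, 4 of the 9 were called higher, among 18.0% of 15162 tested genes called higher and 19.1% called lower, and the median of the 9 was 0.20. In bulk RNA, a change in the number of cells that express a gene and a change in RNA per cell cannot be told apart.

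**Figure D1:**
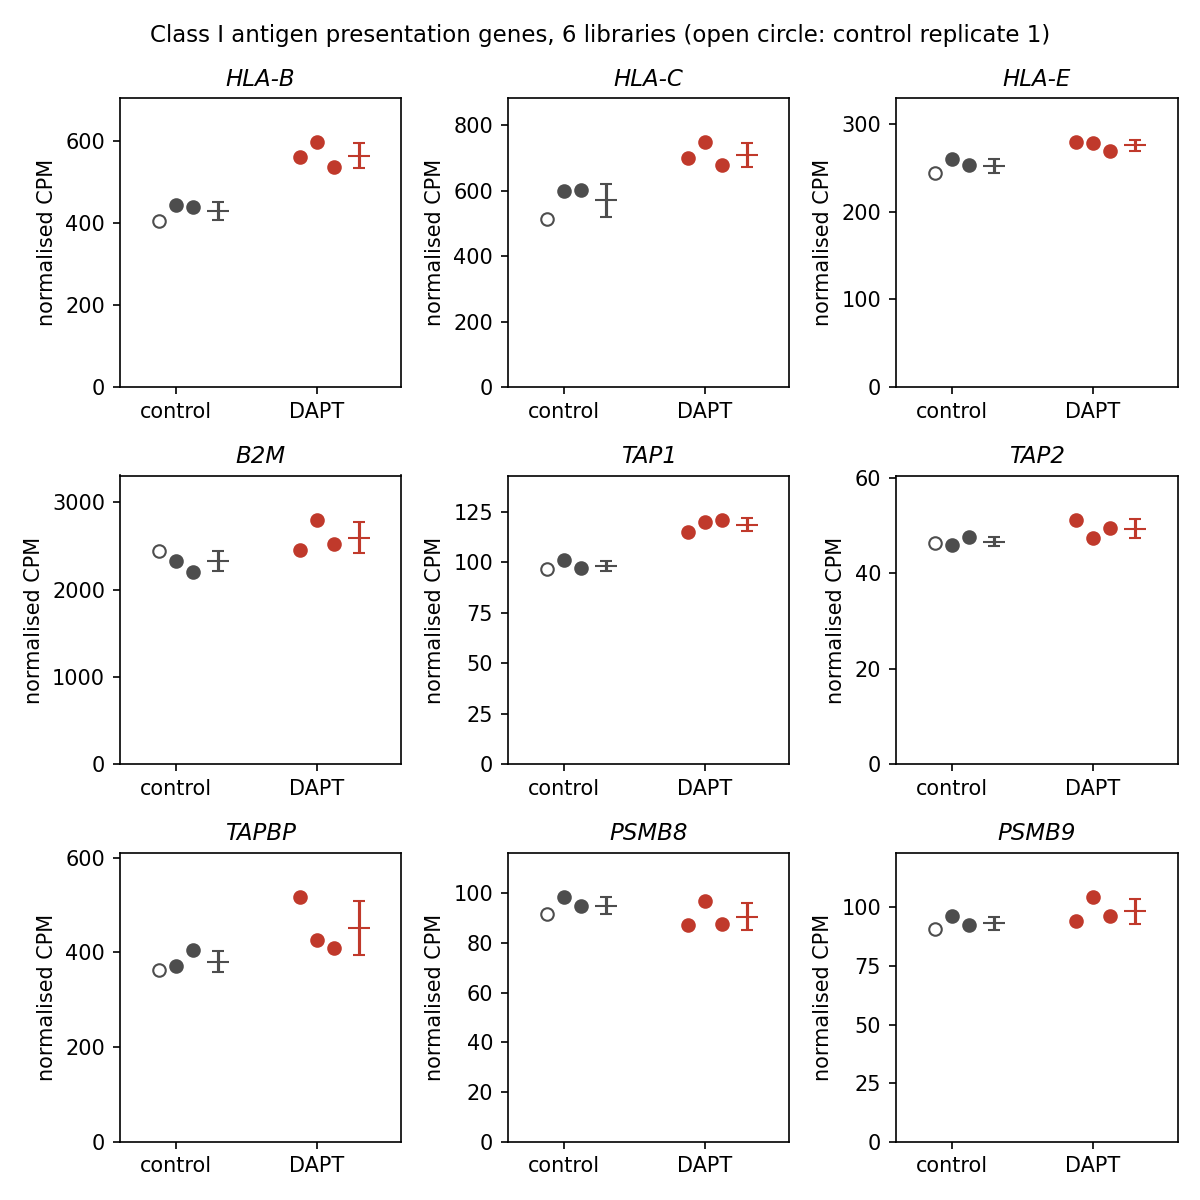
Normalised CPM of the 9 genes in each library, with the 3 control libraries in grey and the 3 DAPT libraries in red. Bars give the mean and SD of each group and the open circle is control replicate 1. All DAPT points lie above all control points in 6 panels, while the groups overlap for *TAP2*, *PSMB8* and *PSMB9*.

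*HLA-B* (chromosome 6, 31269491 to 31357188, minus strand, GRCh38) encodes a heavy chain that presents peptides to cytotoxic T cells. It was at 405, 446 and 440 CPM in control replicates 1, 2 and 3 and at 561, 599 and 537 CPM in DAPT replicates 1, 2 and 3. The lowest treated library was above the highest control by a clear margin. The log2 fold change was 0.40 ± 0.05 (standard error, edgeR quasi-likelihood test, adjusted p = 4.64e-06), and 0.35 without control replicate 1 (adjusted p = 2.05e-06). The annotated gene reaches into *HLA-C*, sharing 1.15% of its exonic bases with it, and 26.3% of the distinct 75-base stretches of its annotated transcripts recur in other genes, 1374 of these 1403 in the pseudogene *DHFRP2*.

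*HLA-C* (chromosome 6, 31268749 to 31272130, minus strand), the heavy chain gene whose product is the main ligand of killer immunoglobulin-like receptors on natural killer cells, was at 514, 599 and 601 CPM in the controls and at 701, 749 and 678 CPM with DAPT. The groups did not overlap, and control replicate 1 was the lowest of the 6 libraries. Its log2 fold change was 0.31 ± 0.06 with all libraries (adjusted p = 0.000382) and 0.24 ± 0.05 without control replicate 1 (adjusted p = 0.000217), both from edgeR's quasi-likelihood test. Of its 75-base stretches 1.33% are shared with other genes. Counts of both genes depend on how closely the HLA alleles of HSC-4 match those of the reference, and the line's alleles were not used here.

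*HLA-E* (chromosome 6, 30489509 to 30494194, plus strand) has few alleles and presents signal peptides of other class I chains to the NKG2A receptor of natural killer cells. Its values were 244, 261 and 253 CPM in the controls and 280, 279 and 269 CPM with DAPT. The groups were separate, with a gap of about the SD of the controls (8.18 CPM). At a log2 fold change of 0.13 ± 0.05 (edgeR, adjusted p = 0.0436) it passed the threshold narrowly. It no longer passed when any 1 of the 6 libraries was left out, with log2 values from 0.10 without control replicate 1 (adjusted p = 0.0746) to 0.15 without DAPT replicate 3 (adjusted p = 0.0632).

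Summed over the 3 heavy chains, the level was 1162, 1305 and 1295 CPM in the controls and 1542, 1627 and 1484 CPM with DAPT. Means ± SD were 1254 ± 79.5 CPM and 1551 ± 71.9 CPM (n = 3 each), and every treated library was above every control. The balance between *HLA-C* and *HLA-B*, as a ratio of CPM per kilobase of exon, was 1.54, 1.64 and 1.66 in the controls and 1.52, 1.52 and 1.54 with DAPT. Its lowest control value, in control replicate 1, lay just above the highest DAPT value. This ratio was not planned either and is a description.

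*B2M* (chromosome 15, 44711487 to 44718877, plus strand), which encodes β2-microglobulin, was the most abundant of the 9 genes. It was at 2441, 2331 and 2206 CPM in the controls and at 2458, 2801 and 2526 CPM with DAPT. Control replicate 1 and DAPT replicate 1 nearly met, and no other pair came as close. The log2 fold change was 0.16 ± 0.06 (edgeR, adjusted p = 0.0302), and 0.20 ± 0.05 without control replicate 1 (adjusted p = 0.00542). The call was lost without control replicate 2 (0.16, adjusted p = 0.0832), control replicate 3 (0.12, adjusted p = 0.193), DAPT replicate 2 (0.10, adjusted p = 0.222) or DAPT replicate 3 (0.18, adjusted p = 0.055). Per kilobase, *B2M* relative to the summed heavy chains was 0.954, 0.809 and 0.771 in the controls and 0.723, 0.780 and 0.772 with DAPT. These ratios overlapped between the groups, and their size depends on the annotated exon lengths. No 75-base stretch of *B2M* transcripts is shared with another gene.

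*TAP1* (chromosome 6, 32845209 to 32853978, minus strand) encodes one chain of the peptide transporter. It was at 96.6, 101 and 97.2 CPM in the controls and at 115, 120 and 121 CPM with DAPT. Both groups were tight and well separated. The log2 fold change was 0.27 ± 0.05 (edgeR quasi-likelihood test, adjusted p = 0.000277), and 0.26 without control replicate 1 (adjusted p = 0.000246).

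*TAP2* (chromosome 6, 32821833 to 32838770, minus strand), the gene of the other transporter chain, was at 46.3, 45.9 and 47.6 CPM in the controls and at 51.2, 47.4 and 49.5 CPM with DAPT. DAPT replicate 2 lay within the control range. The log2 fold change of 0.08 ± 0.06 did not pass edgeR's test (adjusted p = 0.328). In the annotation, 32.2% of its exonic bases also belong to ENSG00000250264 on the same strand, where reads were not counted for either gene. Per kilobase, *TAP1* relative to *TAP2* was 2.77, 2.93 and 2.71 in the controls and 2.98, 3.37 and 3.25 with DAPT, so the ratio was higher in every treated library than in every control. The gap, from 2.93 to 2.98, was narrow. This ratio was not among the planned ones and is a description, as the share of other gene pairs that separate was not computed.

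*TAPBP* (chromosome 6, 33299694 to 33314387, minus strand) encodes tapasin, which bridges TAP and empty class I molecules and edits their peptides. Control values were 363, 372 and 405 CPM, and DAPT values were 517, 426 and 410 CPM. The groups came close, and DAPT replicate 1 was far above the other treated libraries. The log2 fold change was 0.25 ± 0.08 (edgeR, adjusted p = 0.0299). It fell short of the threshold without control replicate 1 (0.22, adjusted p = 0.195), control replicate 2 (0.23, adjusted p = 0.072) or DAPT replicate 1 (0.14, adjusted p = 0.0505).

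**Figure D2:**
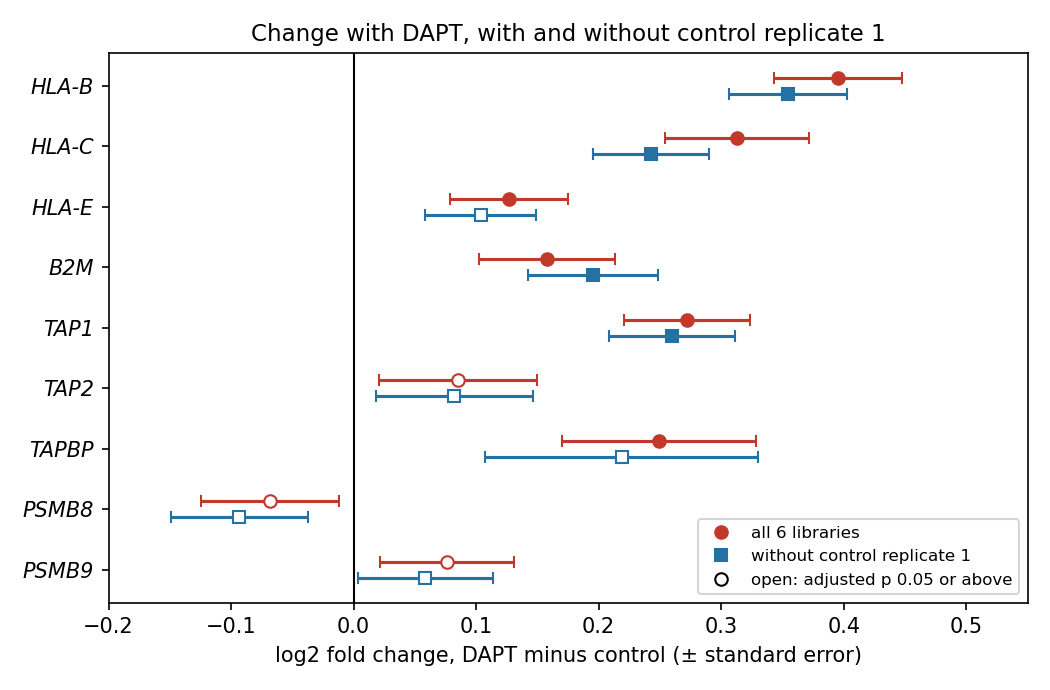
Log2 fold change of each gene (DAPT minus control) with its standard error, from the fit of all 6 libraries (red circles) and without control replicate 1 (blue squares). Filled symbols have an adjusted p under 0.05. *HLA-E* and *TAPBP* are filled with all libraries and open without control replicate 1, and *PSMB8* alone lies below 0.

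*PSMB8* (chromosome 6, 32840717 to 32844703, minus strand) and *PSMB9* (chromosome 6, 32844136 to 32859851, plus strand) encode the catalytic subunits β5i and β1i, which turn the proteasome into the immunoproteasome and favour peptides that fit class I molecules. *PSMB8* was at 91.7, 98.5 and 94.8 CPM in the controls and at 87.2, 96.9 and 87.7 CPM with DAPT. *PSMB9* was at 91.0, 96.4 and 92.5 CPM in the controls and at 94.4, 104 and 96.3 CPM with DAPT. In both genes the groups overlapped. Log2 fold changes were -0.07 ± 0.06 (adjusted p = 0.37) for *PSMB8* and 0.08 ± 0.05 (adjusted p = 0.299) for *PSMB9* in edgeR's test, and -0.09 and 0.06 without control replicate 1. The antisense gene *PSMB8-AS1* covers 5.21% of the exonic bases of *PSMB9* on the same strand, and it crosses *PSMB8* and *TAP1* on the other strand, where by the strand setting of the counting its reads were not assigned to them.

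Neither gene passed on its own. Ratios among neighbouring genes were compared as well. *PSMB8* relative to *PSMB9*, per kilobase, was 0.960, 0.973 and 0.976 in the controls and 0.880, 0.884 and 0.867 with DAPT. *TAP1* relative to its head-to-head neighbour *PSMB9* was 0.737, 0.729 and 0.730 in the controls and 0.845, 0.800 and 0.874 with DAPT. The groups did not overlap in either ratio. Among single genes, every DAPT library lay above every control in 23.6% of all tested genes and below in 22.7%. How often ratios of other gene pairs separate the groups was not computed. These ratios were looked at after the values were seen and are given as a description.

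The immunoproteasome subunits take the place of constitutive ones, β5 (*PSMB5*), β1 (*PSMB6*) and β2 (*PSMB7*). All 3 constitutive genes were lower with DAPT. *PSMB5* was at 135, 155 and 141 CPM in the controls and at 111, 125 and 124 CPM with DAPT (log2 fold change -0.26, edgeR, adjusted p = 0.00191). *PSMB6* was at 116, 116 and 119 CPM and at 89.6, 98.0 and 104 CPM (-0.27, adjusted p = 0.000877). *PSMB7* was at 190, 189 and 177 CPM and at 161, 160 and 160 CPM (-0.21, adjusted p = 0.00222). Every treated library was below every control in each of them, and the calls held without control replicate 1. Over all tested genes, 18.0% were called lower and 22.7% had every DAPT library below every control.

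The ratio of the immune to the constitutive subunit was higher in every treated library than in every control for 2 of 3 pairs. In these 2 pairs the constitutive genes *PSMB5* (-0.26) and *PSMB6* (-0.27) were lower, while *PSMB8* (-0.07) and *PSMB9* (0.08) were not called. A higher ratio here is thus not a called rise of the immune subunit. The size of each ratio depends on the annotated exon lengths, while its log2 difference between the groups does not. Per kilobase, *PSMB8* relative to *PSMB5* was 0.343, 0.320 and 0.338 in the controls and 0.396, 0.389 and 0.357 with DAPT, a log2 difference of 0.19. *PSMB9* relative to *PSMB6* was 0.340, 0.361 and 0.337 in the controls and 0.457, 0.462 and 0.400 with DAPT, a log2 difference of 0.34. For both pairs the exact two-sided permutation test gave p = 0.1, the smallest that 3 against 3 libraries allow (0.15 after Benjamini-Hochberg adjustment over 3 pairs). The third immune subunit, β2i (*PSMB10*), showed no such separation. *PSMB10* relative to *PSMB7* ranged from 0.0600 to 0.0860 in the controls and from 0.0577 to 0.0859 with DAPT (log2 difference 0.03, exact permutation p = 1), and this value turned negative when control replicate 1 (-0.08), DAPT replicate 2 (-0.01) or DAPT replicate 3 (-0.09) was left out. *PSMB10* itself averaged 12.0 ± 1.76 CPM in the controls and 10.7 ± 2.07 CPM with DAPT (SD, n = 3 each).

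**Figure D3:**
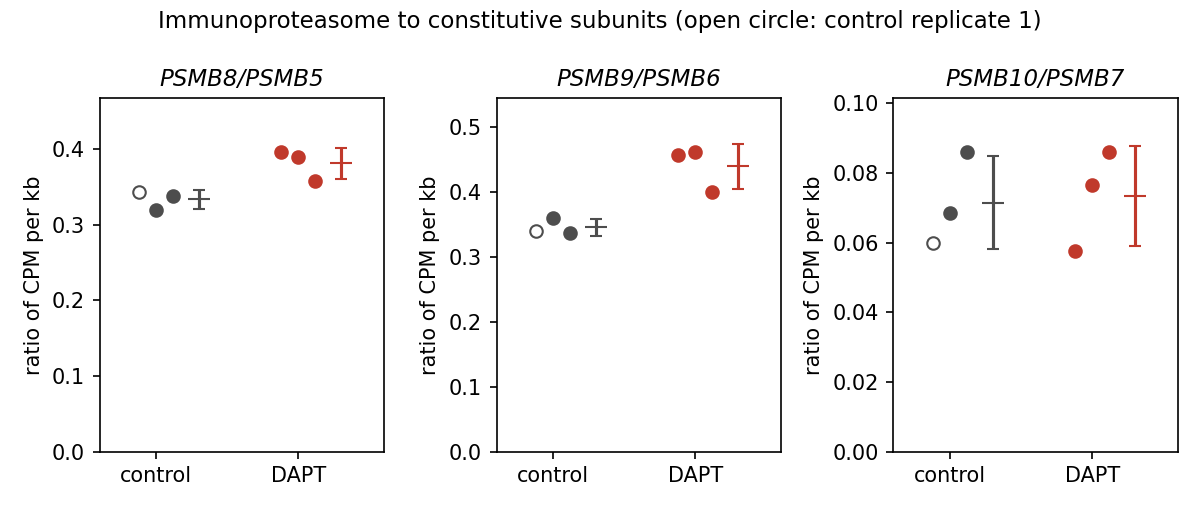
Ratio of each immunoproteasome subunit to the constitutive subunit it replaces, as CPM per kilobase of exon in each library, with group means and SD. The DAPT points lie above the control points for *PSMB8*/*PSMB5* (control mean 0.333, DAPT mean 0.381) and *PSMB9*/*PSMB6* (0.346 and 0.440), and the groups overlap for *PSMB10*/*PSMB7*.

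Compared per kilobase of exon, the controls ranked *B2M* first at 383 ± 19.4 CPM per kilobase, then *HLA-C* at 228 ± 20.0, *HLA-B* at 141 ± 7.26, *HLA-E* at 86.5 ± 2.80, *TAPBP* at 75.1 ± 4.38, *PSMB9* at 28.0 ± 0.838, *PSMB8* at 27.1 ± 0.977, *TAP1* at 20.5 ± 0.508 and *TAP2* at 7.30 ± 0.145 (SD, n = 3). Each gene's lowest control library was above the highest of the next gene, except that *PSMB9* and *PSMB8* overlapped. With DAPT the order of the means was the same. There, *HLA-E* (94.4 ± 2.01) and *TAPBP* (89.2 ± 11.4) overlapped, as did *PSMB8* (25.8 ± 1.56) and *TAP1* (24.7 ± 0.715), while *PSMB9* (29.5 ± 1.59) cleared *PSMB8*.

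Genes that act beside these 9 were read from lists of the pathway. Of 15 other class I and class I-like genes, 14 were tested, 3 were called higher and 1 lower. These shares, 21.4% higher and 7.14% lower, compare with 17.2% and 18.0% of all tested genes, and the list median was -0.01. *ULBP1*, a ligand of the activating receptor NKG2D, was at 4.92, 5.99 and 5.22 CPM in the controls and at 15.2, 14.6 and 12.1 CPM with DAPT, the largest rise of the list (1.38 ± 0.13, n = 3 per group). *MR1*, which presents vitamin metabolites, rose by 0.15 on the log2 scale, and was not called without control replicate 2 (0.13), control replicate 3 (0.14) or DAPT replicate 2 (0.14). *CD1D*, which presents lipids, was the one called lower, at 2.27 ± 0.460 CPM in the controls and 1.13 ± 0.263 CPM with DAPT (-1.01 ± 0.27).

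Among 13 genes of peptide supply and trimming, 1 was higher and 0 were lower in edgeR's test, 7.69% and 0% beside 17.2% and 18.0% of all tested genes. At an unadjusted p under 0.05, where the share of all genes was not computed, 2 were higher and 2 lower. DESeq2 called 1 of the 13 higher and 0 lower, beside 1802 higher and 2172 lower of 15001 tested genes. The higher gene was *LNPEP*, an endosomal aminopeptidase, at 45.2, 43.7 and 44.8 CPM in the controls and 60.4, 63.7 and 57.2 CPM with DAPT (log2 fold change 0.44 ± 0.06). *ERAP1*, which trims peptides in the endoplasmic reticulum, was at 250 ± 6.17 and 272 ± 11.4 CPM and did not pass (edgeR, adjusted p = 0.0676). Without control replicate 1, 2 genes of this list were higher, *LNPEP* and *ERAP1* (0.14, edgeR, adjusted p = 0.022), and 1 was lower, *THOP1* (-0.29, adjusted p = 0.000424). In that fit 18.0% of all tested genes were higher and 19.1% lower. Leaving out DAPT replicate 1 or DAPT replicate 2 also gave 1 lower gene, where 2366 of 15190 and 2190 of 15330 tested genes were lower. *ERAP1* and *THOP1* were named after their values were seen.

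Of 8 chaperones that fold or load class I molecules, 4 were higher and 1 lower, where 17.2% and 18.0% of all tested genes were, and the list median was 0.13. *MOGS*, a glucosidase that trims new glycans, went from 128 ± 7.47 to 154 ± 1.68 CPM (log2 fold change 0.27), *HSPA5*, the chaperone BiP, from 1881 ± 71.0 to 2158 ± 65.2 CPM (0.20), and *CANX*, calnexin, from 948 ± 33.4 to 1061 ± 42.7 CPM (0.16). The fourth, *UGGT1*, which returns misfolded glycoproteins to calnexin, changed by 0.15 and was named after its value was seen. *CALR*, calreticulin, a part of the loading complex itself, moved the other way, from 1904, 1882 and 1930 CPM in the controls to 1639, 1509 and 1488 CPM with DAPT (-0.30, edgeR, adjusted p = 6.12e-05). Without control replicate 2 the list held 2 higher genes, as *CANX* (0.14) and *UGGT1* (0.10) lost their call, without control replicate 3 *CANX* did so (0.15), and without DAPT replicate 3 *UGGT1* did so (0.14). In the fit without control replicate 2, 1962 of 15162 tested genes were higher.

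Regulators of class I genes were 24, of which 23 were tested, 5 were higher and 1 was lower. These are 21.7% and 4.35% of the list, beside 17.2% and 18.0% of all tested genes. *NLRC5*, the class I transactivator, was at 19.4, 20.4 and 19.9 CPM in the controls and at 24.4, 27.6 and 25.3 CPM with DAPT. Its groups were separate, with a log2 fold change of 0.38 ± 0.08 (edgeR, adjusted p = 0.00082) and 0.36 without control replicate 1. *JAK2*, a kinase of the interferon-γ receptor, went from 19.6 ± 1.07 to 27.9 ± 0.295 CPM (0.51), and *RFXAP*, a subunit of the RFX complex with which NLRC5 works, from 12.6 ± 0.154 to 16.2 ± 2.07 CPM (0.36, but 0.27 and not called without DAPT replicate 2). The other 2, named after their values were seen, were *ATF1* (0.28) and *JAK1* (0.23). *RFX5*, the DNA-binding subunit of the RFX complex, was lower (-0.17), a call lost without control replicate 2 (-0.15) or DAPT replicate 2 (-0.14). *IRF1*, a factor of the kind that binds interferon response elements, was at 73.2, 77.3 and 70.9 CPM in the controls. With DAPT it was at 71.8, 73.6 and 66.1 CPM, and the groups overlapped (-0.07, edgeR, adjusted p = 0.409).

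*STAT2*, a transcription factor downstream of interferon receptors that was named after its values were seen, passed the test when control replicate 1, the library with fibroblast transcripts, was left out. It was at 145, 108 and 111 CPM in control replicates 1, 2 and 3 and at 160, 162 and 139 CPM with DAPT. Control replicate 1 was the highest control and lay above DAPT replicate 3. The log2 fold change was 0.33 ± 0.13 with all libraries (edgeR, adjusted p = 0.107) and 0.49 ± 0.06 without control replicate 1 (adjusted p = 1.09e-06). Without that library, 7 regulators were higher and 1 lower, 30.4% and 4.35% of the list. Of all tested genes, 18.0% were higher and 19.1% lower in the same fit.

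Class II genes, whose products present material taken up from outside the cell, were at low levels in HSC-4, at most 18.0 CPM in any library. Of 13 genes 11 were tested, 0 were higher and 6 were lower (54.5%, beside 18.0% of all tested genes), and 10 of the 11 had a log2 fold change below 0 (list median -0.65). At an unadjusted p under 0.05, where the share of all genes was not computed, none was higher either. DESeq2 called 0 class II genes higher and 3 lower, beside 1802 higher and 2172 lower of 15001 tested genes. The largest falls were those of *HLA-DOB* (1.03 ± 0.340 CPM in the controls, 0.420 ± 0.149 CPM with DAPT, log2 fold change -1.22), *HLA-DMB* (1.40 ± 0.10 and 0.673 ± 0.219 CPM, -1.07) and *HLA-DPB1* (2.29 ± 0.0428 and 1.15 ± 0.339 CPM, -0.996). With DAPT, *HLA-DOB* had 9, 4 and 5 counts and *HLA-DMB* 9, 7 and 12. Both passed the filter on low counts through the control libraries, where they were higher. Their falls, and their part in the 6 lower genes, are therefore a description and not independent support. Neither was tested when at least 10 counts were required in every library. *CIITA*, the class II counterpart of *NLRC5*, fell from 5.85, 6.43 and 6.79 CPM to 3.44, 4.09 and 3.69 CPM (-0.76 ± 0.15, edgeR, adjusted p = 0.000517). *CD74*, the invariant chain, fell from 16.6 ± 1.68 to 10.5 ± 0.925 CPM (-0.65), and both were named after their values were seen. Without DAPT replicate 2, 3 class II genes were lower, as *HLA-DRA* (-0.36), *HLA-DMB* (-0.91) and *HLA-DOB* (-1.02) lost their call. Of all tested genes, 2190 of 15330 were lower in that fit. *HLA-DMB* also lost it without control replicate 2 (-1.01) or DAPT replicate 1 (-0.97). *HLA-DOB* (-0.96 and -1.16) and *HLA-DRA* (-0.43 and -0.47) also lost it without control replicate 3 or DAPT replicate 3. Without control replicate 1 the count stayed at 6, where 19.1% of all tested genes were lower.

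**Figure D4:**
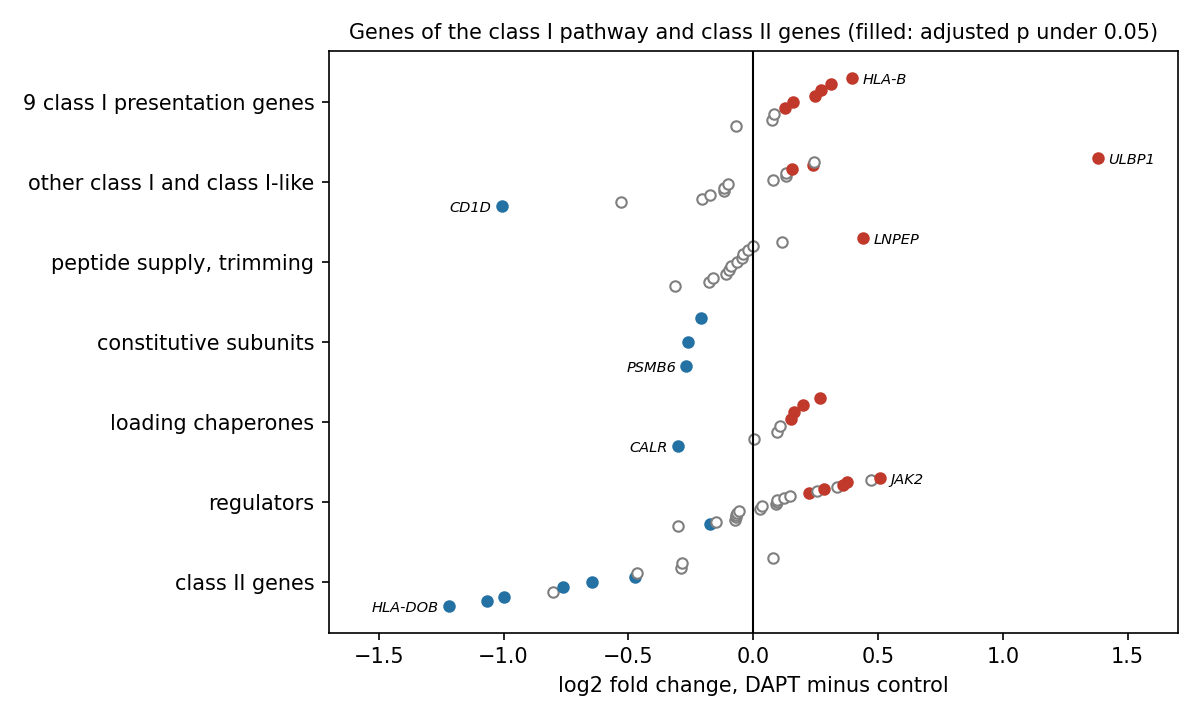
Log2 fold change (DAPT minus control) of each tested gene in the 7 lists, one point per gene ordered within its list. Filled points have an adjusted p under 0.05, red where higher and blue where lower with DAPT. The class I presentation genes lie mostly to the right of 0, the 3 constitutive subunits and 10 of 11 class II genes to the left.

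The other genes whose level over the 6 libraries was most like that of the 9 were sought among 10131 tested genes of at least 10 CPM. Likeness was Pearson's r of log2 CPM with the mean of the standardised levels of the 9 genes, over 6 libraries that share 1 treatment contrast, and is a description. The closest were *ACSL1* (0.994), an acyl-CoA synthetase for long-chain fatty acids, *CYSTM1* (0.991), *KANSL2* (0.990), a subunit of a histone acetyltransferase complex, *NAXD* (0.990), which repairs hydrated NADH and NADPH, and *TRIQK* (0.990). *CYSTM1* changed the most of these, from 22.7 ± 1.34 CPM in the controls to 30.2 ± 1.52 CPM with DAPT (SD, n = 3 each).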

How the data were processed

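The labels gave the group of each of the 6 libraries, and the study's methods gave dose and time. The authors trimmed 75-base single-end reads, mapped these to GRCh38 by HISAT2 and assigned the reads by strand to Ensembl (release 96) genes with featureCounts 1.6.3, per the file headers. The deposited values were raw counts per gene without normalization, and the submitters' processing notes also name HTSeq and DESeq2. By the counting defaults, reads in several genes or places were left out. Symbols were matched to 58472 of 58884 genes.

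Counts were compared with edgeR 4.0.16 in R 4.3.3, with a filter on low counts (minimum 10), TMM normalization, a robust quasi-likelihood test and Benjamini-Hochberg adjustment over 15001 genes, and the procedure was tested on simulated data. CPM are on the TMM scale, and each standard error was taken from its test statistic. Ratios used an exact permutation test. Alternatives were DESeq2 1.42.0, limma-voom 3.58.1, other scalings and filters, an offset for GC content and length (splines of 5 degrees of freedom), a replicate block and each library left out. The members and lists were chosen with earlier results of these data known. Named genes were the 9 members, *HES1*, the constitutive subunits, *PSMB10*, *NLRC5* and *IRF1*, up to 3 called genes per list and direction with the largest change, and 5 genes of most similar level. Some genes these rules cover are counted in their lists and not reported here by name.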

Additional observations from a re-analysis of the deposited data

How the results depend on the processing

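Higher levels of *HLA-B* (log2 fold change 0.35 to 0.47), *HLA-C* (0.24 to 0.42) and *TAP1* (0.26 to 0.32) passed the threshold in all 18 alternatives. *HLA-E* lost its call in 11 of them, *B2M* in 6 and *TAPBP* in 4, and none of the 9 genes changed direction. *PSMB9* gained a call in 2, the GC content and length offset with and without the replicate block (0.12, smallest adjusted p = 0.0433). At an adjusted p under 0.01 (3 genes) fewer of the 9 were called higher, and leaving out each library in turn gave 3 to 4, the 3 being without control replicate 2. Of all tested genes 5281 were called, 3338 at an adjusted p under 0.01, and 4174 to 5618 with 1 library left out. The *PSMB10*/*PSMB7* log2 difference of 0.03 ranged from -0.0893 to 0.198 with 1 library left out, so its sign was not stable. The 6 lists held 25 called genes, and 39 with the GC content and length offset together with the replicate block. Within lists, chaperones had 2 higher at an adjusted p under 0.01, class II genes 3 lower in DESeq2 and at 0.01, regulators 9 higher and 3 lower with the offset and block, and other class I genes 5 higher with the offset and 6 with offset and block. Of all 15001 tested genes, 1516 were higher and 1822 lower at an adjusted p under 0.01, and 1802 and 2172 in DESeq2. With the offset 3141 were higher and 2819 lower, and with offset and block 3160 and 2878. Peptide supply genes had 1 lower in limma-voom, without a filter and in the fit that was not robust, and 2 with the offset. The causes were not tested. Library size alone moved the median of all genes to 0.06 and the share of higher genes among those called from 48.7% to 61.5%.

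No sign of pairing by replicate number was seen, as deviations of same-numbered libraries correlated at 0.0164, 0.0343 and -0.0233 over 14199 genes. With 3 libraries per group, this cannot settle whether the cultures were paired. With the replicate block 6 of the 9 genes and 5295 genes in all were called. Depth limits the precision of genes near 1 CPM, such as *HLA-DOB* and *HLA-DMB*.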
